A study of Mus musculus with 8 samples.

Results

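The genes described here are 38 genes of the cell cycle and of DNA replication, measured by RNA sequencing in the hearts of C57BL/6 mouse embryos at embryonic day 9.5. They form a list of known regulators and effectors of cell division, drawn up by name with earlier results of these data known, as were the gene pairs and ratios set against each other below. All 38 were found among the 49315 genes of the count table, and all 38 were among the 16377 genes with enough counts to be tested; the lowest count of any of them in any library was 124, for Rb1. By role they are 8 cyclins and kinases of the G1 phase, 5 E2F factors and pocket proteins, 8 genes of DNA replication in S phase, 12 genes of G2 and mitosis, 3 genes that restrain the cycle (Cdkn1a, Cdkn1b and Trp53), and Myc and Mycn. Male embryos gave 4 libraries and female embryos gave 4, all of the same strain and stage and with no treatment named in the labels. Per the labels' protocols, embryos were sexed by genotyping non-cardiac tissue for Sry, the testis-determining gene of the Y chromosome, the hearts were lysed in Trizol, and sequencing libraries were prepared with Illumina's TruSeq RNA chemistry. Whether a library holds 1 heart or several, and which embryos were littermates, is not in the labels, and the p-values therefore speak only of the spread among these 8 libraries.

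A cell commits to division in G1, when D-type cyclins activate the kinases Cdk4 and Cdk6. These phosphorylate the retinoblastoma protein and its relatives, the pocket proteins, which then release E2F transcription factors. E2F factors raise the transcription of cyclin E and of the replication machinery, including the Mcm helicase that unwinds DNA and Pcna, the clamp that holds the polymerase on it. Cyclin A and cyclin B with Cdk1 then drive entry into mitosis, where Aurora kinases, Plk1 and the spindle checkpoint govern the separation of chromosomes. Cardiomyocytes of the embryonic heart contract and divide at the same stage, and most stop dividing soon after birth.

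Total counts were 21778953 to 39773169 in male libraries and 20105913 to 51134291 in female libraries. All 8 cardiomyocyte markers, such as Tnnt2 and Nkx2-5, were at or above 1 CPM (counts scaled to the size of each library, with TMM factors) in every library, with summed values of 39566 to 62198 CPM in male libraries and 36504 to 46760 CPM in female libraries. All 7 endocardial and endothelial, 4 epicardial and 7 erythroid markers also passed 1 CPM in every library, as did 4 of 10 foregut, 1 of 7 hepatic and yolk sac, and 2 of 6 neural crest markers. Among the markers at 0 in some library were Shh of the foregut, Alb of the liver and Foxd3 of the neural crest. Male replicate 2 stood apart on the first principal component, which held 54.6% of the variance, at 71.6 against a range of -45.0 to 21.6 for the other 7 libraries. It had the lowest share of mitochondrial counts, 0.707%, where the highest was 1.72% (Female replicate 4), and the lowest TMM factor, 0.864. Its long genes were low against its short ones: the mean log2 deviation of genes with at least 5952 exon bases minus that of genes with at most 2144 was -0.258 there, between -0.0138 and 0.129 in the other male libraries and between -0.103 and 0.234 in the female libraries. Because Male replicate 2 weighs on many of the values below, its own values, or results without it, are given beside them.

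To compare genes with one another, the CPM of each gene was divided by the length of its merged exons in kilobases. This quantity is called the level. Ranks and folds between genes in level depend on these lengths. The median level of the 38 genes was 31.1, against 3.50 over all genes tested, and 34 of the 38 genes lay above the median of all genes. By sex, the median level of the 38 genes was 29.3 in male libraries and 32.9 in female libraries. The S phase genes had the highest median level, 47.9, followed by the G2 and mitosis genes at 40.9 and the G1 genes at 25.1. Myc and Mycn together had a median level of 13.1, the inhibitors and Trp53 8.37, and the E2F factors and pocket proteins 2.58. Cdk4 had the highest mean level, with 161 ± 6.90 in male libraries and 174 ± 7.95 in female libraries (SD, n = 4 each), and ranked first in 7 of 8 libraries. Ccnd2, Pcna, Rrm2 and Cdc20 came next in the order of mean levels. Rb1 was lowest in all 8 libraries, at 1.16 ± 0.14 in male libraries and 1.05 ± 0.08 in female libraries (SD, n = 4 each), and Cdk6, E2f2 and Rbl1 were the other genes below the median of all genes. The 38 genes also varied less between libraries than most: their median coefficient of variation of CPM over the 8 libraries was 11.7%, against 16.4% over all genes tested, and 31 of the 38 genes lay below the latter value. This comparison was not matched for level. The median was 12.2% for the 127 other cell cycle genes tested, described at the end, and 9.72% for the endocardial and endothelial markers. The most variable were Ccnd2 with 35.6%, Ccnd1 with 29.0%, E2f2 with 26.7% and Myc with 25.4%.

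**Figure D1:**
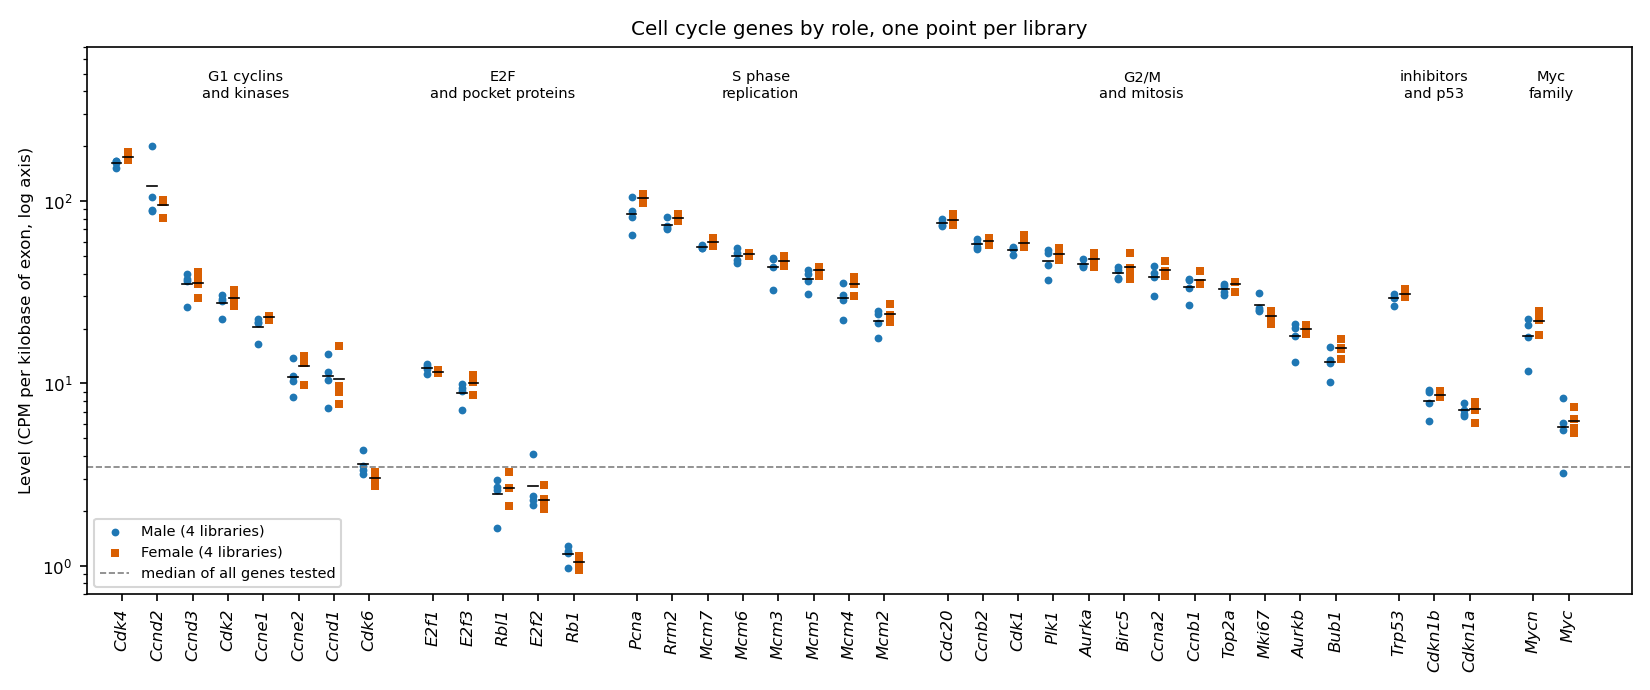
Level of each of the 38 genes (CPM per kilobase of exon, log axis), grouped by role, with 1 point per library, male libraries as circles to the left of female libraries as squares, and a black line for the mean of each sex. Cdk4 and Ccnd2 lie highest, Rb1 lies lowest, and the dashed line marks the median of all genes tested, 3.50.

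The first comparison was between the sexes, by the edgeR quasi-likelihood test across all 16377 genes. None of the 38 genes passed an adjusted p of 0.05 (edgeR, Benjamini-Hochberg); over all genes tested 6 did, which is 0.0366%. The adjusted p was 0.9995 for each of the 38 genes. No gene of the 38 had an unadjusted p below 0.05 in edgeR, DESeq2 or limma-voom, where 367 of all genes tested did in edgeR, 2.24%. The fitted log2 fold change, male minus female, was below 0 for 31 of the 38 genes and above 0 for 7, against 47.1% of all genes tested below 0. Its median was -0.11 over the 38 genes and 0.01 over all genes tested, and it ran from -0.29 for Pcna to 0.34 for Ccnd2. Without Male replicate 2 the median over the 38 genes was -0.04, and 30 of the 38 values were below 0. In the same fit 7 of 8 cardiomyocyte markers had values above 0, with a median of 0.17, and 2 of the 8 had an unadjusted p below 0.05. The mean log2 deviation of the 8 from each gene's own mean over the 8 libraries was 0.49 in Male replicate 2. It lay between -0.19 and 0.10 in the other male libraries and between -0.34 and 0.06 in the female libraries. All 4 epicardial markers had values above 0, with a median of 0.21. All 10 foregut markers had values below 0, with a median of -0.86. Foregut markers had a median level of only 0.47, and their mean log2 deviation was 1.46 in Female replicate 1. It lay between -0.48 and 0.40 in the other female libraries and between -0.67 and 0.71 in the male libraries. Values were above 0 for 3 of 7 endothelial and 5 of 7 erythroid markers. No marker of these lists passed an adjusted p of 0.05 (edgeR), and the part of cell composition in the values of the 38 genes was not tested. All 8 S phase genes, 11 of 12 G2 and mitosis genes, 5 of 8 G1 genes, all 3 of the inhibitors and Trp53, and both Myc genes had values below 0, whereas 3 of the 5 E2F factors and pocket proteins had values above 0. The median was -0.13 for S phase genes, -0.12 for G2 and mitosis genes, -0.05 for G1 genes and 0.07 for E2F factors and pocket proteins. Leaving out Male replicate 2, it was -0.10 for S phase genes, -0.05 for G2 and mitosis genes and -0.01 for G1 genes, and the G1 value ran from -0.12 (without Male replicate 3) to 0.01 (without Female replicate 4). In CPM, Mki67 was higher in every male than in every female library, which held for 1.14% of all genes tested, and Cdk4 and Cdk1 were lower in every male than in every female library, which held for 1.11% of all genes tested. Scaled by library size alone, without TMM factors, the sexes overlapped for Cdk4 and Cdk1, and not for Mki67.

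**Figure D2:**
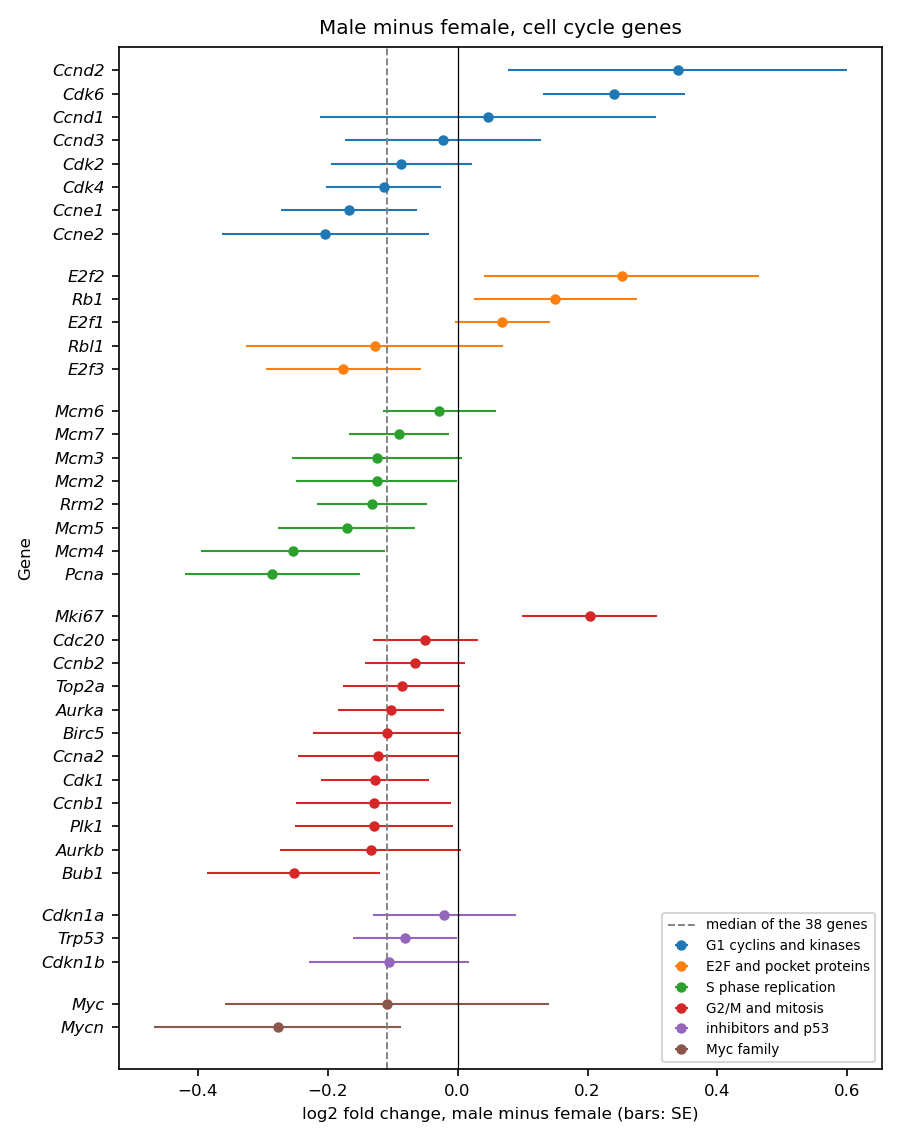
Fitted log2 fold change, male minus female, of the 38 genes on the horizontal axis, with bars for the standard error, coloured and grouped by role. Most points lie left of 0, from Pcna at -0.29 to Ccnd2 at 0.34, and the dashed line marks the median of -0.11.

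The D cyclins, which carry growth signals to the cell cycle, were measured as Ccnd1 (chr7:144929931-144939925, minus strand), Ccnd2 (chr6:127125162-127152193, minus strand) and Ccnd3 (chr17:47505051-47599691, plus strand), with positions on GRCm38. Their level followed the order Ccnd2, Ccnd3, Ccnd1 in all 8 libraries. Ccnd2 had levels of 88.3, 201.4, 89.1 and 105.2 in male libraries (replicates 1 to 4, the order kept throughout), against 101.9, 98.8, 101.6 and 80.5 in female libraries (replicates 1 to 4). Male replicate 2 was far above the rest, Female replicate 4 was lowest, and the sexes overlapped. For Ccnd3 the levels were 37.5, 26.2, 39.6 and 36.5 in male libraries, against 29.3, 35.0, 36.7 and 41.0 in female libraries. Here Male replicate 2 was the lowest and Female replicate 4 the highest, the reverse of Ccnd2. Ccnd1 levels were 11.6, 7.37, 14.5 and 10.5 in male libraries, against 7.75, 9.63, 8.94 and 16.1 in female libraries. Ccnd1 was likewise lowest in Male replicate 2 and highest in Female replicate 4. Of the summed level of the D cyclins, Ccnd2 made up 64.3%, 85.7%, 62.2% and 69.1% in male libraries, against 73.3%, 68.9%, 69.0% and 58.5% in female libraries. The sum itself was 137.3, 234.9, 143.3 and 152.3 in male libraries and lay between 137.6 and 147.3 in female libraries, so that 7 of the 8 libraries had sums close to one another while the mix within the sum varied.

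No D cyclin showed a difference between the sexes larger than the spread of the libraries. The log2 fold change, male minus female, was 0.34 ± 0.26 (SE) for Ccnd2, with an unadjusted p of 0.226 in edgeR, and it was -0.02 without Male replicate 2. It was 0.05 ± 0.26 for Ccnd1, with an unadjusted p of 0.861, and -0.02 ± 0.15 for Ccnd3, with an unadjusted p of 0.885 (edgeR); without Male replicate 2 these were 0.19 and 0.09. Exons of Ccnd1 share 1100 bases, 23.4% of their length, with LTO1 on the opposite strand, a gene with 4576 counts over the 8 libraries against 14423 for Ccnd1. How reads in such shared bases were assigned is not stated in the labels. Male replicate 2, where Ccnd2 was highest, also had the highest summed cardiomyocyte markers, 62198 CPM, and Female replicate 4, where Ccnd2 was lowest, had the lowest, 36504 CPM. The part of these markers in the Ccnd2 values was not tested.

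**Figure D3:**
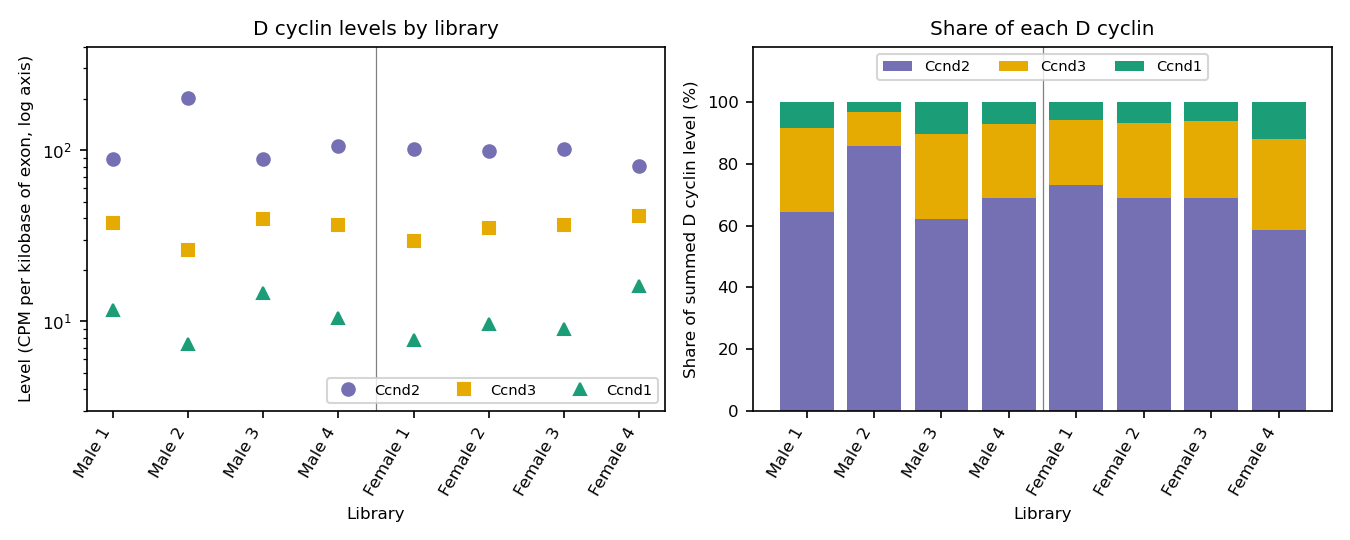
Left, level of Ccnd2, Ccnd3 and Ccnd1 in each library (CPM per kilobase of exon, log axis); right, the share of each in their summed level, in percent, with the 4 male libraries left of the 4 female libraries. Ccnd2 makes up 85.7% of the sum in Male replicate 2, against 58.5% in Female replicate 4, with values between 62.2% and 73.3% in the others.

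Over the 8 libraries, Ccnd2 was 5.0 to 27.3 times as high in level as Ccnd1, with a median of 10.1, and 1.96 to 7.70 times as high as Ccnd3, with a median of 2.80. These folds, and the shares above, depend on the merged exon lengths of 9409 bases for Ccnd2, 8775 for Ccnd3 and 4709 for Ccnd1. The order of the 3 genes was the same in CPM in all 8 libraries. The 8 ratios between related genes that were set against sex included 3 of the D cyclins. For Ccnd1 over Ccnd2 the log2 ratio averaged -3.41 ± 0.95 in male libraries and -3.23 ± 0.62 in female libraries (SD, n = 4 each), a difference of -0.19 with a 2-sided exact permutation p of 0.80. For Ccnd3 over Ccnd2 it averaged -1.72 ± 0.83 in male libraries and -1.44 ± 0.34 in female libraries, a difference of -0.28 (exact permutation p = 0.743). Without Male replicate 2 these differences were 0.27 and 0.12, of the opposite sign. For Ccnd1 over Ccnd3 it averaged -1.69 ± 0.17 in male libraries and -1.79 ± 0.31 in female libraries, a difference of 0.10 (exact permutation p = 0.571), which was 0.25 without Female replicate 4 and 0.02 without Female replicate 3 or Male replicate 3. After Benjamini-Hochberg adjustment over the 8 ratios each of the 3 stood at p = 0.886 by the exact permutation test.

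The D cyclins varied in concert, and not all in the same direction. Over the 8 libraries, log2 CPM of Ccnd1 and Ccnd3 varied together, with Pearson's r = 0.88 (exact permutation p = 0.00499, 0.0166 adjusted over 10 gene pairs) and Spearman's rho = 0.93 (exact p = 0.00223, adjusted 0.0223). Without the 2 libraries farthest from the median of Ccnd1, r was 0.89 (exact permutation p = 0.0125, adjusted 0.125), without Male replicate 2 it was 0.88 (exact permutation p = 0.00417, adjusted 0.0417), and with the mean of each sex removed it was 0.89. Ccnd2 moved against both. For Ccnd2 with Ccnd3, r was -0.86 (exact permutation p = 0.00280, adjusted 0.0140) and rho -0.86 (exact p = 0.0107, adjusted 0.0357). Leaving out the libraries farthest from the median of Ccnd2, which are Male replicate 2 and Female replicate 4, r was -0.52 (exact permutation p = 0.310), so that this relation rests on those libraries. For Ccnd1 with Ccnd2, r was -0.72 (exact permutation p = 0.0177, adjusted 0.0354) and rho -0.83 (exact p = 0.0154, adjusted 0.0384). Without the 2 libraries farthest from the median of Ccnd1, r was -0.70 (exact permutation p = 0.0708), and without Male replicate 2 it was -0.86, with an exact permutation p of 0.0127 and 0.0635 after adjustment. With the mean of each sex removed, r was -0.89 for Ccnd2 with Ccnd3 and -0.79 for Ccnd1 with Ccnd2. Correlations of this size were not particular to the D cyclins. Over the 8 libraries Ccnd2 had r = -0.98 with Mcm3 and -0.98 with Aurkb, and Ccnd3 had r = 0.90 with Mcm2. The share of all gene pairs with an r this strong was not computed.

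Cdk4 and Cdk6 are the kinases that D cyclins bind. Cdk4 (chr10:127063534-127067920, plus strand) had 525.5, 491.7, 541.6 and 536.4 CPM in male libraries, against 604, 561, 556.6 and 545.6 CPM in female libraries. Every male library was below every female library, with Male replicate 2 lowest and Female replicate 1 highest. This separation was present with the TMM factors, but not by library size alone. The log2 fold change was -0.11 ± 0.09 (SE), with an unadjusted p of 0.227 in edgeR. The exons of Cdk4 share 604 bases, 18.6% of their length, with Tspan31 on the opposite strand, which had 13043 counts against 151956 for Cdk4. Cdk6 (chr5:3341485-3531008, plus strand) had 46.9, 60.1, 44.5 and 49.5 CPM in male libraries, against 45.9, 41.7, 44.2 and 38.6 CPM in female libraries. Male replicate 2 was highest and Female replicate 4 lowest, and the sexes overlapped. Cdk6 had the smallest unadjusted p of the 38 genes, 0.0539 in edgeR, with a log2 fold change of 0.24 ± 0.11 (SE), and 0.14 without Male replicate 2.

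In level, Cdk4 exceeded Cdk6 by 35.2-fold (Male replicate 2) to 60.9-fold (Female replicate 4), with a median of 53.3. The size of this fold depends on the merged exon lengths, 3249 bases for Cdk4 and 13989 for Cdk6. The log2 ratio of Cdk6 over Cdk4 averaged -5.50 ± 0.25 in male libraries and -5.84 ± 0.07 in female libraries (SD, n = 4 each), and all 4 male libraries were above all 4 female libraries. The difference was 0.35, with a 2-sided exact permutation p of 0.0286, the smallest that 4 libraries against 4 can give. Adjusted over the 8 ratios this became 0.229 by the exact permutation test, and a lone ratio at the smallest p cannot go lower, so the design could not show this difference past the threshold. Without Male replicate 2 the difference was 0.23, with the male libraries still all above the female libraries. Log2 CPM of Cdk4 and Cdk6 had r = -0.62 over the 8 libraries (exact permutation p = 0.104, adjusted 0.130) and -0.10 without Male replicate 2.

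Cyclin E with Cdk2 starts replication at the end of G1. In level, Ccne1 averaged 20.5 ± 2.79 in male libraries and 23.0 ± 0.58 in female libraries, and Ccne2 averaged 10.9 ± 2.18 in male libraries and 12.5 ± 1.84 in female libraries (SD, n = 4 each). Ccne1 exceeded Ccne2 in all 8 libraries, by 1.57-fold to 2.38-fold. Their log2 ratio, Ccne2 over Ccne1, differed by -0.03 between the sexes (exact permutation p = 0.886). The size of the fold depends on the merged exon lengths, 2662 bases for Ccne1 and 3495 for Ccne2. The exons of Ccne2 share 609 bases, 17.4% of their length, with Ints8 on the opposite strand, which had 7985 counts against 11621 for Ccne2. Cdk2 had a level of 27.7 ± 3.41 in male libraries and 29.3 ± 2.45 in female libraries (SD, n = 4 each). All of Ccne1, Ccne2 and Cdk2 were lowest in Male replicate 2.

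E2F factors and pocket proteins form the switch that the G1 kinases act on. E2f1, an activator of S phase genes (chr2:154559407-154569892, minus strand), was the highest of the group in level. With the TMM factors its values were among the steadiest of the 38 genes, with a coefficient of variation of 4.56%. It had 37.7, 39.4, 40.3 and 35.8 CPM in male libraries, against 36.8, 35.8, 35.8 and 37.5 CPM in female libraries. The sexes overlapped, no library stood out, and the log2 fold change was 0.07 ± 0.07 (SE, unadjusted p = 0.369 in edgeR). By library size alone Male replicate 2 was the lowest library for E2f1. E2f3, another activator (chr13:29906575-29985668, minus strand), had 47.8, 34.4, 45.1 and 43.6 CPM in male libraries, against 49.2, 48.6, 41.7 and 53.5 CPM in female libraries. Male replicate 2 was lowest, the other male libraries lay within the range of the female libraries, and the log2 fold change was -0.18 ± 0.12 (SE; unadjusted p = 0.174 in edgeR), and -0.09 without Male replicate 2.

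E2f2, also an activator, went the other way in Male replicate 2. It had 19.99 CPM there, against 10.5 to 11.8 CPM in the other male libraries and 10.04 to 13.5 CPM in the female libraries, a range that the other male libraries did not leave. Rbl1 encodes the pocket protein p107 and Rb1 the retinoblastoma protein itself. In level Rbl1 exceeded Rb1 by 1.32-fold in Male replicate 2, the lowest, and by 2.04-fold to 2.88-fold in the other 7 libraries. Their log2 ratio, Rbl1 over Rb1, averaged 1.06 ± 0.46 in male libraries and 1.35 ± 0.23 in female libraries (SD, n = 4 each), a difference of -0.29 with an exact permutation p of 0.286. Without Male replicate 2 the difference was -0.07, and without Male replicate 1 it was -0.41. Rb1 had 1830 counts over the 8 libraries, and 8.11% of its exon length is shared with Rcbtb2 and 6.78% with Lpar6, both on the opposite strand and with 17239 and 3847 counts, so part of the Rb1 counts may belong to these genes.

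The S phase genes encode the Mcm helicase, the clamp Pcna, and Rrm2, a subunit of the ribonucleotide reductase that makes deoxynucleotides. Pcna (chr2:132249162-132253314, minus strand) was the highest in level and had the lowest log2 fold change of the 38 genes. It had 211.5, 157.3, 251.5 and 195.4 CPM in male libraries, against 261.5, 247.2, 233.9 and 251.2 CPM in female libraries. Male replicate 2 was lowest, and only Male replicate 3 reached into the range of the female libraries. The log2 fold change was -0.29 ± 0.13 (SE), with an unadjusted p of 0.0620 in edgeR, and it was -0.18 without Male replicate 2. Sequences close to Pcna elsewhere in the genome are annotated as pseudogenes; Pcna-ps2 had 224 counts and Pcna-ps1 3 counts over the 8 libraries.

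The Mcm proteins 2 to 7 assemble in equal number into 1 helicase, while their transcripts were not equal. Mcm7 had the highest level of the 6 genes and Mcm2 the lowest in all 8 libraries: Mcm7 averaged 56.1 ± 0.87 in male libraries and 59.8 ± 2.54 in female libraries, and Mcm2 averaged 22.1 ± 3.26 in male libraries and 24.1 ± 2.35 in female libraries (SD, n = 4 each). This order holds per kilobase of merged exons, 4426 bases for Mcm7 and 6956 for Mcm2, and depends on those lengths; 7.25% of the Mcm7 length is also shared with Ap4m1 and 1.45% with Cops6, both on the opposite strand and with 5443 and 62678 counts against 71119 for Mcm7. With the TMM factors, Mcm6 and Mcm7 behaved unlike the other 4 in Male replicate 2. Mcm6 had its highest value of all libraries there, 258.3 CPM, against 213.7 to 242.4 CPM in the other male libraries and 233.1 to 240.9 CPM in the female libraries. Mcm7 had 252.8 CPM in Male replicate 2, above the 244.8 to 250.6 CPM of the other male libraries and within the 250.6 to 277.7 CPM of the female libraries. The TMM factor of Male replicate 2, 0.864, decides this. Scaled by library size alone, Mcm6 (narrowly) and Mcm7 were both lowest in Male replicate 2. Mcm2, Mcm3, Mcm4 and Mcm5 were each at their lowest there; Mcm4 had 80.1 CPM, against 103 to 128.1 CPM in the other male libraries and 108.5 to 137.3 CPM in the female libraries. Mcm2 and Mcm5 varied together over the 8 libraries (r = 0.93, exact permutation p = 0.00144, adjusted 0.0140; rho = 0.79, exact p = 0.0279, adjusted 0.0559). Without the 2 libraries farthest from the median of Mcm2, r was 0.76 (exact permutation p = 0.10), and without Male replicate 2 it was 0.79, with an adjusted exact permutation p of 0.118.

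Promoters of the 38 genes were read for letters associated with their timing. RefSeq windows on GRCm38.p6, each of 300 bases from 250 before to 50 after a gene's start, were matched for 30 of the 38 genes; Ccnd1, Ccnd2, Ccne2, Ccna2, Rb1, Mcm4, Aurkb and Myc were not matched. Searched on both strands were the CHR element (TTTGAA or TTCGAA), bound by the repressor and activator complexes of late cell cycle genes, CCAAT, bound by NF-Y, and the E2F letters TTCCCGC or TTGGCGC or TTCGCGC or TTGCCGC. The letters TTCGAA read the same on both strands. An E2F match can share letters with a CCAAT match or with another E2F match on the other strand, and such matches were counted separately. The CHR letters stood in the windows of 8 of 10 matched G2 and mitosis genes (80.0%), 2 of 7 S phase genes (28.6%) and 0 of 5 G1 genes. They also stood in 2 of 4 E2F and pocket protein genes and in Mycn, and in 0 of the 3 inhibitors and Trp53. Of all 27025 genes with a window, 21.7% had them. CCAAT stood in 9 of 10 G2 and mitosis genes and in all 7 S phase genes, against 41.1% of all genes. The E2F letters stood in 5 of 7 S phase genes (71.4%), 3 of 4 E2F and pocket protein genes and 3 of 10 G2 and mitosis genes, against 10.9% of all genes. A match is a string of letters and not a measured binding site. The 150 bases before the start are shown for Mcm6 and for 4 G2 and mitosis genes with CHR letters. Mcm6 was the S phase gene with the most E2F matches, overlapping ones counted. With the TMM factors it had its highest value in Male replicate 2. The 4 were Cdk1 and Mki67, whose sexes did not overlap in CPM, Cdc20, the highest of its group, and Top2a, with the most CHR matches. For Cdk1 the lack of overlap held only with the TMM factors. Capitals mark CHR, CCAAT and E2F letters on either strand, and each run is written 5′ to 3′ along the gene's own strand. The positions are chr1:128359706-128359855 for Mcm6, chr10:69352913-69353062 for Cdk1, chr7:135716380-135716529 for Mki67, chr4:118437344-118437493 for Cdc20 and chr11:99024190-99024339 for Top2a, all on the minus strand.
Mcm6: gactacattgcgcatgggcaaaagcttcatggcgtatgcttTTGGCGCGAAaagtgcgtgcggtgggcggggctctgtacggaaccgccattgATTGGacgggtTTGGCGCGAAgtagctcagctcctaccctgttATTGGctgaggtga
Cdk1: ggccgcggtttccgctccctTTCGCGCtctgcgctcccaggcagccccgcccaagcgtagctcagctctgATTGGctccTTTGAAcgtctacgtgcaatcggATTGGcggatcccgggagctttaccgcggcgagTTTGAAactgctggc
Mki67: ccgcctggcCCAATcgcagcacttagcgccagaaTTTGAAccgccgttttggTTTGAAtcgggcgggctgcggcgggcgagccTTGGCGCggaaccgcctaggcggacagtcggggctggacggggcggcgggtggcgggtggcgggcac
Cdc20: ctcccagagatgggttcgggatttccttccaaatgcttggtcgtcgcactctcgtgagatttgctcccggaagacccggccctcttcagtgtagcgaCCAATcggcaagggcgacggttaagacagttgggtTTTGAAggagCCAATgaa
Top2a: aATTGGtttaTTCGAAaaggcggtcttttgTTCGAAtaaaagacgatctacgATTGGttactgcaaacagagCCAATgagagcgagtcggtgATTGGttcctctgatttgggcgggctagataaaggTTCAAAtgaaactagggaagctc

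With the TMM factors, the genes of G2 and mitosis did not behave as 1 block. Scaled by library size alone, all of them but Mki67 were lowest in Male replicate 2. Cdc20, the activator of the anaphase-promoting complex (chr4:118432901-118437352, minus strand), had 138.2, 149.8, 143.8 and 136.8 CPM in male libraries, against 158.0, 139.5, 152.9 and 138.4 CPM in female libraries. The sexes overlapped, and with the TMM factors Male replicate 2 lay within the range of the other libraries. The log2 fold change was -0.05 ± 0.08 (SE, unadjusted p = 0.553 in edgeR). Mki67, the gene of the proliferation antigen Ki-67 that coats mitotic chromosomes (chr7:135689784-135716361, minus strand), had 255.3, 316.6, 252.4 and 262.1 CPM in male libraries, against 251.5, 229.3, 248.7 and 214.3 CPM in female libraries. Every male library was above every female library, by less than 1 CPM between the nearest of them, and Male replicate 2 was highest. The log2 fold change was 0.20 ± 0.10 (SE), with an unadjusted p of 0.0815 in edgeR, and 0.12 without Male replicate 2. Cdk1, the mitotic kinase, had 175.2, 191.8, 187.9 and 190.5 CPM in male libraries, against 223.3, 203.5, 194.8 and 192.2 CPM in female libraries. All male libraries were below all female libraries, with Male replicate 2 nearest to them, and the log2 fold change was -0.13 ± 0.08 (SE), with an unadjusted p of 0.159 in edgeR. By library size alone the sexes overlapped for Cdk1, and Male replicate 2 was the lowest library.

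In Male replicate 2, with the TMM factors, 6 of the 12 G2 and mitosis genes were at their lowest of the 8 libraries. Among them were Ccna2 and Ccnb1, cyclins that activate Cdk1, Plk1 and Aurkb, kinases of mitosis, and Bub1 of the spindle checkpoint. Ccnb1 had 113.2 CPM in Male replicate 2, against 141.2 to 157.5 CPM in the other male libraries and 148.7 to 174.2 CPM in the female libraries, and Ccna2 had 123.9 CPM there, against 156.6 to 180.6 CPM in the other male libraries and 157.7 to 191.3 CPM in the female libraries. Ccnb2 lay nearer to the other libraries there, at 85.2 CPM, against 83.8 to 94.9 CPM in the other male libraries and 88.1 to 96.4 CPM in the female libraries. In level Ccnb2 exceeded Ccnb1 by 1.52-fold to 2.07-fold, the most in Male replicate 2. This order rests on the merged exon lengths, 1531 bases for Ccnb2 and 4217 for Ccnb1. In CPM Ccnb1 exceeded Ccnb2 in all 8 libraries. The log2 ratio of Ccnb2 over Ccnb1 in level differed by 0.07 between the sexes (exact permutation p = 0.571). A pseudogene, Ccnb2-ps, had 600 counts over the 8 libraries and Ccnb1-ps had 48. Birc5, which encodes survivin, had 149 CPM in Male replicate 2, against 127.1 to 142.4 CPM in the other male libraries and 127.5 to 176.7 CPM in the female libraries. Aurka, a kinase of the spindle poles, had 110.8 CPM there, against 111.6 to 121.1 CPM in the other male libraries and 110.5 to 131.4 CPM in the female libraries. By library size alone Ccnb2, Birc5 and Aurka were each lowest in Male replicate 2. Top2a, the enzyme that untangles sister DNA, had a level of 33.0 ± 2.12 in male libraries and 35.0 ± 2.11 in female libraries (SD, n = 4 each). Ccna2 and Cdk1, which act as a pair, had r = 0.01 over the 8 libraries (exact permutation p = 0.988; rho = -0.02), and r = 0.68 when scaled by library size alone.

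Trp53, the gene of the tumour suppressor p53 (chr11:69580359-69591873, plus strand), had 119.5, 107.8, 124.6 and 121.3 CPM in male libraries, against 133.3, 125.7, 119.9 and 121.6 CPM in female libraries. The sexes overlapped, Male replicate 2 was lowest, and the log2 fold change was -0.08 ± 0.08 (SE; unadjusted p = 0.336 in edgeR), and -0.04 without Male replicate 2. Cdkn1a, the p21 inhibitor that p53 induces, had a level of 7.12 ± 0.53 in male libraries and 7.22 ± 0.82 in female libraries, and Cdkn1b, the p27 inhibitor, had 8.06 ± 1.39 in male libraries and 8.67 ± 0.29 in female libraries (SD, n = 4 each). Cdkn1a and Trp53 had r = -0.12 over the 8 libraries (exact permutation p = 0.793), which was 0.69 without the 2 libraries farthest from the median of Cdkn1a, so no direction can be given.

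Myc and Mycn encode related transcription factors that promote growth, and Mycn is the form known to be needed for growth of the embryonic ventricle wall in mice. Mycn (chr12:12936096-12941914, minus strand) had 68.6, 38.5, 74.5 and 58.9 CPM in male libraries, against 75.3, 73.6, 60.4 and 81.7 CPM in female libraries. Male replicate 2 was far below the rest, the other male libraries overlapped the female range, and the log2 fold change was -0.28 ± 0.19 (SE), with an unadjusted p of 0.179 in edgeR, and -0.12 without Male replicate 2. Myc had 8.74 CPM in Male replicate 2, against 15.1 to 22.7 CPM in the other male libraries and 14.5 to 20.2 CPM in the female libraries. In level Mycn exceeded Myc in all 8 libraries, by 2.71-fold to 4.19-fold, and their log2 ratio, Mycn over Myc, differed by -0.14 between the sexes (exact permutation p = 0.457), with -0.24 to -0.05 on leaving out each library. Log2 CPM of Myc and Mycn had r = 0.82 over the 8 libraries (exact permutation p = 0.0352, adjusted 0.0502), and r = 0.29 without Male replicate 2.

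With the TMM factors, Male replicate 2 held the lowest CPM of 24 of the 38 genes, 63.2%. Among all genes tested it held the lowest CPM of 33.4%. It held the highest CPM of 5 of the 38 genes, 13.2%, against 31.9% of all genes tested. These were Ccnd2, Cdk6, E2f2, Mki67 and, with the TMM factors only, Mcm6. Female replicate 4 held the highest CPM of 17 of the 38 genes, 44.7%, against 21.1% of all genes tested. Against each gene's own mean over the 8 libraries, the 38 genes averaged -0.01, -0.20, 0.09 and -0.05 on the log2 scale in male libraries, against 0.04, 0.03, 0.00 and 0.10 in female libraries. Within Male replicate 2 the median deviation was -0.36 for G1 genes, -0.36 for S phase genes, -0.12 for G2 and mitosis genes and -0.80 for Myc and Mycn, and the extremes were 0.95 for Ccnd2 and -0.85 for Myc. Exon length went with these deviations in opposite senses in the genes at large and in the 38 genes: in Male replicate 2 the correlation across genes of the deviation with log2 exon length was 0.35 over the 38 genes and -0.23 over all genes tested, where genes are not independent replicates. Foregut markers were also highest in that library among the male libraries, with a sum of 357.9 CPM against 155.9 to 192 CPM in the other male libraries and 162.1 to 311.3 CPM in the female libraries. By mean log2 deviation Female replicate 1 was highest, at 1.46 for foregut and 2.42 for hepatic and yolk sac markers. The same means were 0.71 and 1.41 in Male replicate 2. The part of cell composition, gene length or depth in the values of Male replicate 2 was not tested, and in bulk tissue fewer cells of a type and less RNA per cell cannot be told apart.

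**Figure D4:**
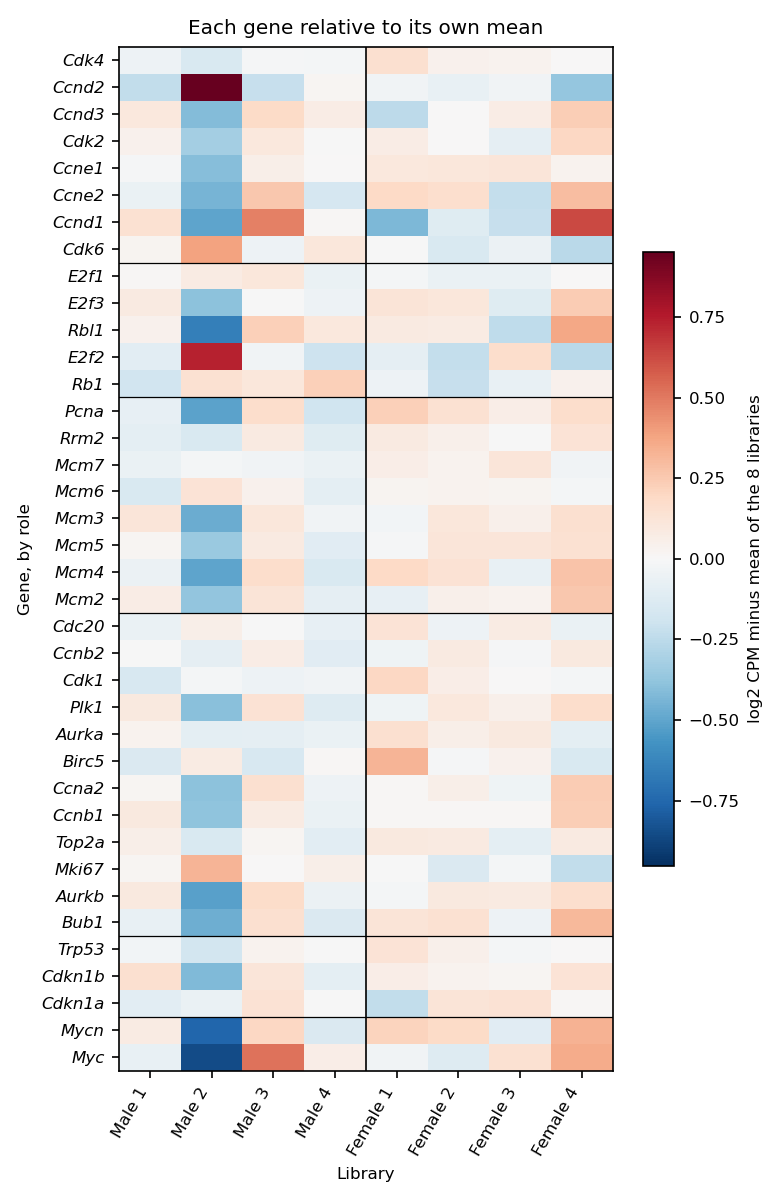
Log2 CPM of each of the 38 genes minus its mean over the 8 libraries, with the 4 male libraries left of the 4 female libraries and genes grouped by role. The column of Male replicate 2 is blue for 29 genes and red for 9, most deeply for Ccnd2 (0.95), E2f2 (0.73), Cdk6 (0.38) and Mki67 (0.33).

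Covariation over all 8 libraries as 1 set was described with Pearson's r of log2 CPM between each pair of the 38 genes, which share library depth and composition. The median r over the 703 pairs was 0.33, with 61.5% of pairs above 0, against a median of 0.00 and 50.04% above 0 over all pairs of tested genes. With the TMM factors the median was 0.67 within the S phase genes, 0.24 within the G1 genes and 0.21 within the G2 and mitosis genes. Between groups it was 0.57 for G1 with S phase genes, 0.37 for G1 with G2 and mitosis genes, and 0.46 for S phase with G2 and mitosis genes. Without Male replicate 2 the median was 0.56 within the S phase genes, 0.10 within the G2 and mitosis genes and -0.21 within the G1 genes, and between groups it was 0.24 for G1 with S phase genes, 0.12 for G1 with G2 and mitosis genes, and 0.49 for S phase with G2 and mitosis genes. Scaled by library size alone, without TMM factors, the median over the 703 pairs was 0.77. Pcna, Mcm4 and Bub1 had the highest r with the mean of the S phase and G2 and mitosis genes other than themselves, at 0.99, 0.97 and 0.96, and Mycn, from another group, had 0.96. At the other end Cdk6 had -0.94, Mki67 -0.91, Ccnd2 -0.88 and E2f2 -0.77; without Male replicate 2 these were -0.80, -0.72, -0.47 and -0.03. Of the 20 S phase and G2 and mitosis genes, 13 had an r above 0.7 with the mean of the others, and 4 had an r below 0. With Male replicate 2 left out these counts were 7 and 2, and Mcm6 had an r of 0.70, against -0.26 with all libraries. Ccnd2 with Mki67 had r = 0.88 (exact permutation p = 0.0129, adjusted 0.0322) and rho = 0.62 (exact p = 0.115, adjusted 0.164), but -0.03 once the same libraries, Male replicate 2 and Female replicate 4, were left out, so that the relation rests on those libraries. Ccnb1 with Ccnb2 had r = 0.70 (exact permutation p = 0.0315, adjusted 0.0502) and rho = 0.88 (exact p = 0.00724, adjusted 0.0357).

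**Figure D5:**
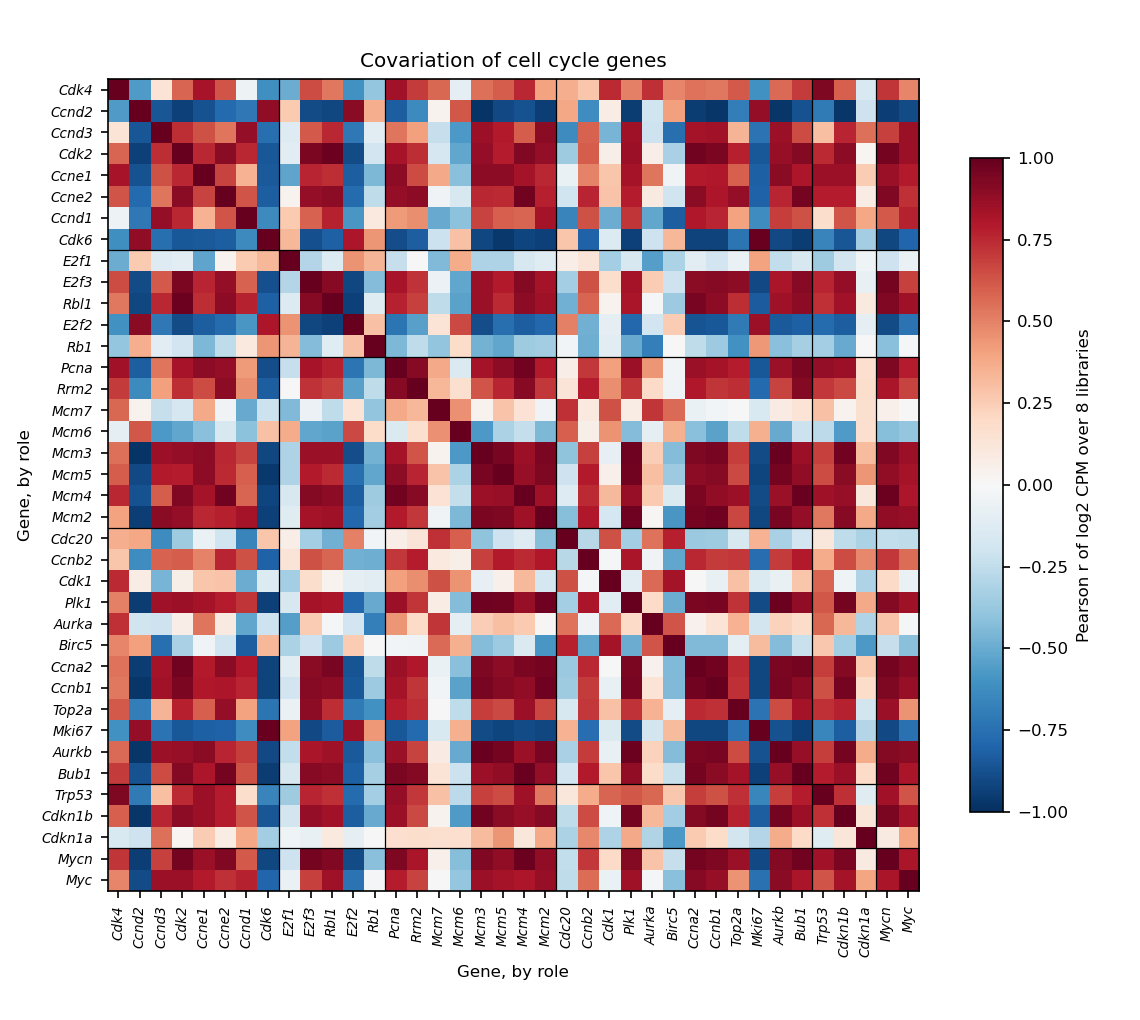
Pearson r of log2 CPM over the 8 libraries for each pair of the 38 genes, with genes grouped by role on both axes, red for r above 0 and blue for r below 0. Ccnd2, Cdk6, E2f2 and Mki67 appear as blue lines against a red field, and the lines of Mcm6, Mcm7, Cdc20, Cdk1, Aurka, Birc5, E2f1, Rb1 and Cdkn1a are of mixed colour.

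Other genes of the same pathways, 128 in all, were read in the same fit. Of these 127 were tested; Cdkn2a, with 70 counts, was not. None passed an adjusted p of 0.05 (edgeR), and 90 of the 127 had a log2 fold change, male minus female, below 0, with a median of -0.06. Among 41 further replication genes, such as origin and polymerase subunits, 31 had values below 0, with a median of -0.07. Gmnn, the geminin that blocks relicensing of origins, had the highest level there, 57.2, and Orc6 of the origin complex had the smallest unadjusted p, 0.0764 in edgeR, at -0.20. Among 34 further mitosis genes 26 had values below 0, with a median of -0.06; Ube2c, the ubiquitin-conjugating enzyme of the anaphase-promoting complex, had the highest level, 131, and Ndc80 of the kinetochore had the smallest unadjusted p, 0.0501 in edgeR, at -0.21. Among 29 tested genes of G1/S and G2 control 22 had values below 0, with a median of -0.09. Cdkn1c, the p57 inhibitor, had a level of 1061 there, above every one of the 38 genes, and Cdk7 the smallest unadjusted p, 0.106 in edgeR, at -0.15. Among 14 targets of p53 8 had values above 0, with a median of 0.04; Bax had the highest level, 85.3, and Eda2r the smallest unadjusted p, 0.193 in edgeR, at 0.40. Among 9 partners of Myc 5 had values below 0, with a median of -0.10; Max had the highest level, 26.9, and Mga had an unadjusted p of 0.0284 in edgeR, at 0.26, the only one of the 127 below 0.05.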

How the data were processed

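RNA sequencing of 8 libraries, 4 male and 4 female, was analysed from the whole-number counts per gene that the authors deposited. The submitters' processing notes name the trimmer Trimmomatic 0.36, the aligner STAR 2.5.2b, the counter featureCounts (Subread 1.5.2) and the build GRCm38 (mm10). The annotation, strandedness and handling of multimapping reads were not given in the sources used here. Totals ranged from 20105913 to 51134291 counts per library. The series table of raw counts equals the tables per library in every cell, and a deposited normalized table was not used. Positions and exon lengths are those of the deposited tables.

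The contrast male minus female was fitted with the robust quasi-likelihood test of edgeR 4.0.16 (R 4.3.3), 2-sided and without covariates, after filterByExpr at a minimum count of 10 and TMM scaling, with Benjamini-Hochberg adjustment over 16377 genes and a threshold of 0.05. The fit was checked on simulated counts. CPM values carry the TMM factors, and levels are CPM per kilobase of merged exons. Ratios were compared by 2-sided exact permutation over the 70 divisions of 8 libraries into 4 and 4, and correlations by exact permutation of pairings over 10 gene pairs. Alternatives were DESeq2 1.42.0, voom of limma 3.58.1, other scaling and filters, the replicate number as a block, and leaving out libraries. Python 3.11.15, numpy 2.4.6, scipy 1.17.1 and matplotlib 3.10.9 were used.

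The 38 genes, the other gene lists, the markers, the pairs and the ratios were chosen with earlier results of these data known. Values in every library are given for Ccnd1, Ccnd2 and Ccnd3 and, in each role, for the gene with the highest mean level and that with the smallest unadjusted p; of the other pathway lists, the gene with the highest level and that with the smallest p are named. Values for further genes, such as Cdk1, E2f2, Mcm6, Ccnb1 and Myc, were chosen after they were seen. Promoter letters come from RefSeq windows on GRCm38.p6.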

Additional observations from a re-analysis of the deposited data

Results flagged for a closer look

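In 92 groups of 4 libraries, 1 sex and 1 gene or ratio each, the highest or lowest library was set against the others by Dixon's rule, with a critical value of 0.829. Chance alone marks about 1 group in 20, and 8 groups were marked, 4 of them because of Male replicate 2. Ccnd2 in male libraries was 1895 CPM in replicate 2, against 831 to 990.2 CPM in the others. Ccnd2 in female libraries was 757 CPM in replicate 4, against 930 to 958.5 CPM in the others. E2f2 was 19.99 CPM in Male replicate 2, against 10.5 to 11.8 CPM in the other male libraries. Mki67 was 316.6 CPM there, against 252.4 to 262.1 CPM, and Ccne1 was 43.6 CPM there, against 57.2 to 59.7 CPM. Ccnb1 was 174.2 CPM in Female replicate 4, against 148.7 to 149.2 CPM in the other female libraries, and Mcm6 was 233.1 CPM there, against 239.7 to 240.9 CPM. Top2a was 286.9 CPM in Female replicate 3, against 323.8 to 325.8 CPM in the other female libraries.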

How the results depend on the processing

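No alternative called any of the 38 genes, and between 5 and 9 genes of the whole table were called, with 5 under the replicate block and 9 by DESeq2. Same-numbered libraries did not deviate together: the correlations of their deviations from the mean of each sex were -0.417, -0.0752, -0.327 and -0.00616, so the numbers were not read as pairs. An unadjusted p below 0.05 was found for 5 of the 38 genes without Male replicate 3, and for 1 gene each with library size alone and with no filter. Of 192 values of named genes 185 kept their direction, as did 78 of 88 ratio differences. The correlations were less stable. Of 110 values of gene pairs, 10 changed sign, 13 lost and 8 gained an adjusted p below 0.05 (exact permutation), and 79 kept both. Of 70 median correlations, 25 moved by at least the SD of the values on leaving out each library. The 4 libraries per sex limit the smallest exact p, and depth varied 2-fold or more between libraries.

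With Female replicate 1 and Male replicate 2 left out, the log2 fold change of Ccnd3 was 0.0084, the median of the G2 and mitosis genes -0.056, and the differences in ratio 0.10 for Ccnd1/Ccnd2, 0.0025 for Ccnd3/Ccnd2, 0.0017 for Ccne2/Ccne1 and -0.020 for Ccnb2/Ccnb1. On the TPM scale median levels were 74.1 for the 38 genes, 59.8 for G1, 113 for S phase and 96.6 for G2 and mitosis genes. Without the 2 farthest libraries, r was -0.697 for Ccnd1 with Ccnd2, 0.889 for Ccnd1 with Ccnd3, -0.524 for Ccnd2 with Ccnd3, 0.758 for Mcm2 with Mcm5, -0.0922 for Ccna2 with Cdk1, 0.685 for Cdkn1a with Trp53 and -0.0288 for Ccnd2 with Mki67. With library size alone, r was 0.950 for Ccnb1 with Ccnb2, 0.879 for Myc with Mycn, 0.525 for Ccnd2 with Mki67 and 0.506 for Cdkn1a with Trp53, and the median r was 0.631 within G1, 0.910 within S, 0.699 within G2/M, 0.768 over all pairs, 0.790 for G1 with S, 0.749 for G1 with G2/M and 0.848 for S with G2/M. With the mean of each sex removed, r was -0.360 for Ccna2 with Cdk1 and 0.830 for Myc with Mycn, and the median r was 0.584 within S and -0.0085 within G2/M. The cause was not tested.

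Leaving out each library in turn, log2 fold changes ran from -0.12 to 0.32 for Ccnd1, -0.023 to 0.46 for Ccnd2 and -0.10 to 0.093 for Ccnd3, and medians from -0.13 to -0.038 for the 38 genes and -0.13 to -0.052 for G2 and mitosis genes. Differences in ratio ran from -0.45 to 0.27 for Ccnd1/Ccnd2, -0.47 to 0.12 for Ccnd3/Ccnd2, -0.15 to 0.050 for Ccne2/Ccne1 and -0.016 to 0.12 for Ccnb2/Ccnb1. Correlations ran from -0.861 to -0.669 for Ccnd1 with Ccnd2, -0.980 to -0.669 for Ccnd2 with Ccnd3, -0.873 to -0.103 for Cdk4 with Cdk6, 0.600 to 0.772 for Ccnb1 with Ccnb2, -0.121 to 0.0785 for Ccna2 with Cdk1, 0.791 to 0.953 for Mcm2 with Mcm5, 0.285 to 0.869 for Myc with Mycn, -0.483 to 0.604 for Cdkn1a with Trp53 and 0.580 to 0.914 for Ccnd2 with Mki67. Median r ran from -0.213 to 0.576 within G1, 0.559 to 0.805 within S, 0.0992 to 0.349 within G2/M, 0.255 to 0.397 over all pairs, 0.243 to 0.693 for G1 with S, 0.120 to 0.508 for G1 with G2/M and 0.439 to 0.562 for S with G2/M.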
